A study of Mus musculus with 12 samples.

Results

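Messenger RNA of 42 lysosomal genes was compared between osteoclasts, immature dendritic cells and macrophages cultured from marrow; the C57BL/6J donors were 6 to 8 weeks old. The 42 genes form a fixed list of symbols: 9 cysteine cathepsins and legumain, 4 aspartic and serine proteases, 11 glycosidases, 4 sulfatases, 8 lipid-degrading enzymes and their activators, 1 acid phosphatase, 3 membrane proteins, and the transcription factors Tfeb and Tfe3. All 42 were found among the 46072 Ensembl genes of the authors' deposited table. Ctsk, the cathepsin that marks osteoclasts, was kept off the list and serves only as a yardstick.

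Lysosomes are acidic compartments in which proteins, glycans, sulfated sugar chains and lipids are broken down. Most of their enzymes leave the Golgi with a mannose 6-phosphate tag, while heavily glycosylated proteins such as Lamp1 and Lamp2 line their membrane. Osteoclasts fuse secretory lysosomes with the membrane facing bone, dendritic cells cut antigens in them, and macrophages clear engulfed material through them. Tfeb and Tfe3 are transcription factors known to bind the E-box-like element found in many lysosomal promoters.

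Osteoclast cultures received M-CSF at 30 ng/ml together with RANKL at 50 ng/ml, after 5 days of precursor expansion in M-CSF at 100 ng/ml. Immature dendritic cells were grown in GM-CSF at 20 ng/ml without that expansion. Macrophages shared the osteoclasts' expansion and then had M-CSF at 30 ng/ml alone. Differentiation took 8 to 10 days, and osteoclast wells were cleared of cells with a single nucleus by Accutase. Each cell type has 4 libraries, and per the labels 1 mouse gave all 3 cell types of an experiment. These are mixed cultures read in bulk, so fewer cells of a type and less RNA per cell cannot be told apart.

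Each value is the mean normalised count the authors gave for a cell type, and these means sum to 2.42e+07 in osteoclasts, 2.77e+07 in dendritic cells and 2.50e+07 in macrophages by the authors' deposited table. A log2 fold change is followed by its standard error as the authors' p-value implies it (±), and genes are called at an authors' adjusted p under 0.05. No standard deviation between libraries can be given for the means, except for low genes whose reads per library could be recovered. All 8 osteoclast markers were called higher in osteoclasts than in macrophages, and 7 of 8 macrophage markers lower. Against dendritic cells 6 of the osteoclast markers were called higher in osteoclasts, and Dcstamp and Ocstamp were not called. In dendritic cells 5 osteoclast markers, Acp5, Ctsk, Dcstamp, Mmp9 and Ocstamp, were called higher than in macrophages. Of the macrophage markers 2 were called higher and 3 lower in osteoclasts than in dendritic cells. All 8 dendritic markers were called higher in dendritic cells than in either other cell type, and 2 of them, Itgax and Zbtb46, higher in osteoclasts than in macrophages. The summed means of 10 neutrophil markers were 77.9 in osteoclasts, 14766 in dendritic cells and 92.9 in macrophages, with Elane and Ctsg at 0 in osteoclasts and Camp and Ly6g at 0 in macrophages. The sums of 8 mast cell and basophil markers were 13.98, 950.9 and 11.9 in the same order of cell types, and those of 4 eosinophil markers 396.6, 8228 and 179.4. Of these lists 9 of 10, 7 of 8 and 3 of 4 members were called higher in dendritic cells than in macrophages by the authors' deposited table. Of all genes tested 20.3% were called so. The other eosinophil marker, Ccr3, was called lower in dendritic cells than in macrophages. Ccr3 and Prg2, also of the eosinophil list, were called higher in osteoclasts than in macrophages. The part these cells have in any dendritic value below was not tested. Markers of B, T and NK, stromal and erythroid cells summed to at most 49.1 in each cell type.

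The 42 genes together held 4.31% of the summed means in osteoclasts, 5.13% in dendritic cells and 6.40% in macrophages by the authors' deposited table. Ctsd, Ctsb and Psap made up 56.8% of that in osteoclasts, 64.2% in dendritic cells and 67.3% in macrophages. Without these 3 genes the list held 1.86% in osteoclasts, 1.84% in dendritic cells and 2.09% in macrophages. Ctsd alone, the main aspartic protease of lysosomes, held 1.17% in osteoclasts, 0.934% in dendritic cells and 2.13% in macrophages. Psap, the precursor of the saposins that help enzymes reach membrane lipids, held 0.416% in osteoclasts, 1.88% in dendritic cells and 0.546% in macrophages. The leading gene therefore differed: Ctsd came first of the 42 in osteoclasts and macrophages, and Psap in dendritic cells.

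**Figure D1:**
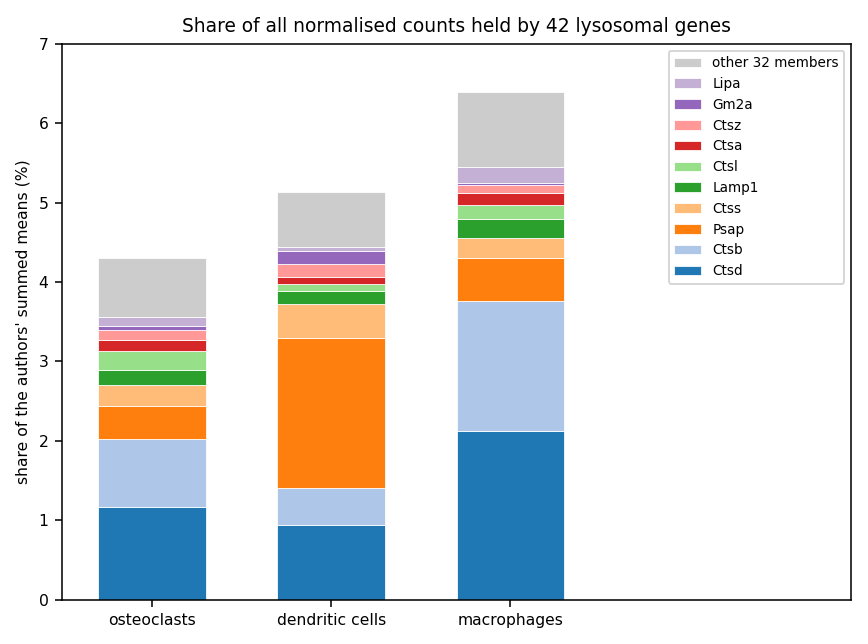
Share of the authors' summed mean normalised counts (y axis, percent) held by the 42 genes in each cell type, with the 10 largest members stacked by colour and the other 32 in grey. The bars reach 4.31% in osteoclasts, 5.13% in dendritic cells and 6.40% in macrophages, and Psap fills 1.88% of the dendritic bar.

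Per kilobase of exon, levels spread over more than 3 orders of magnitude. They ran from 0.532 for Ctse to 4984 for Ctsd in osteoclasts, in mean normalised counts per kilobase, scaled to equal summed means. In dendritic cells they ran from 2.39 for Ctsf to 6867 for Psap, and in macrophages from 3.91 for Ctse to 9040.3 for Ctsd. The median member stood at 51.6 in osteoclasts, 42.6 in dendritic cells and 66.7 in macrophages. All genes above 0 had medians of 0.745, 0.667 and 0.638 in the same order of cell types. Among the 50 highest genes of the table per kilobase were 7 members in osteoclasts, 5 in dendritic cells and 7 in macrophages. Ctsd ranked 2 of all genes in osteoclasts, 8 in dendritic cells and 2 in macrophages, and Psap ranked 24, 2 and 14. The table used here holds means, so these ranks carry no error.

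**Figure D2:**
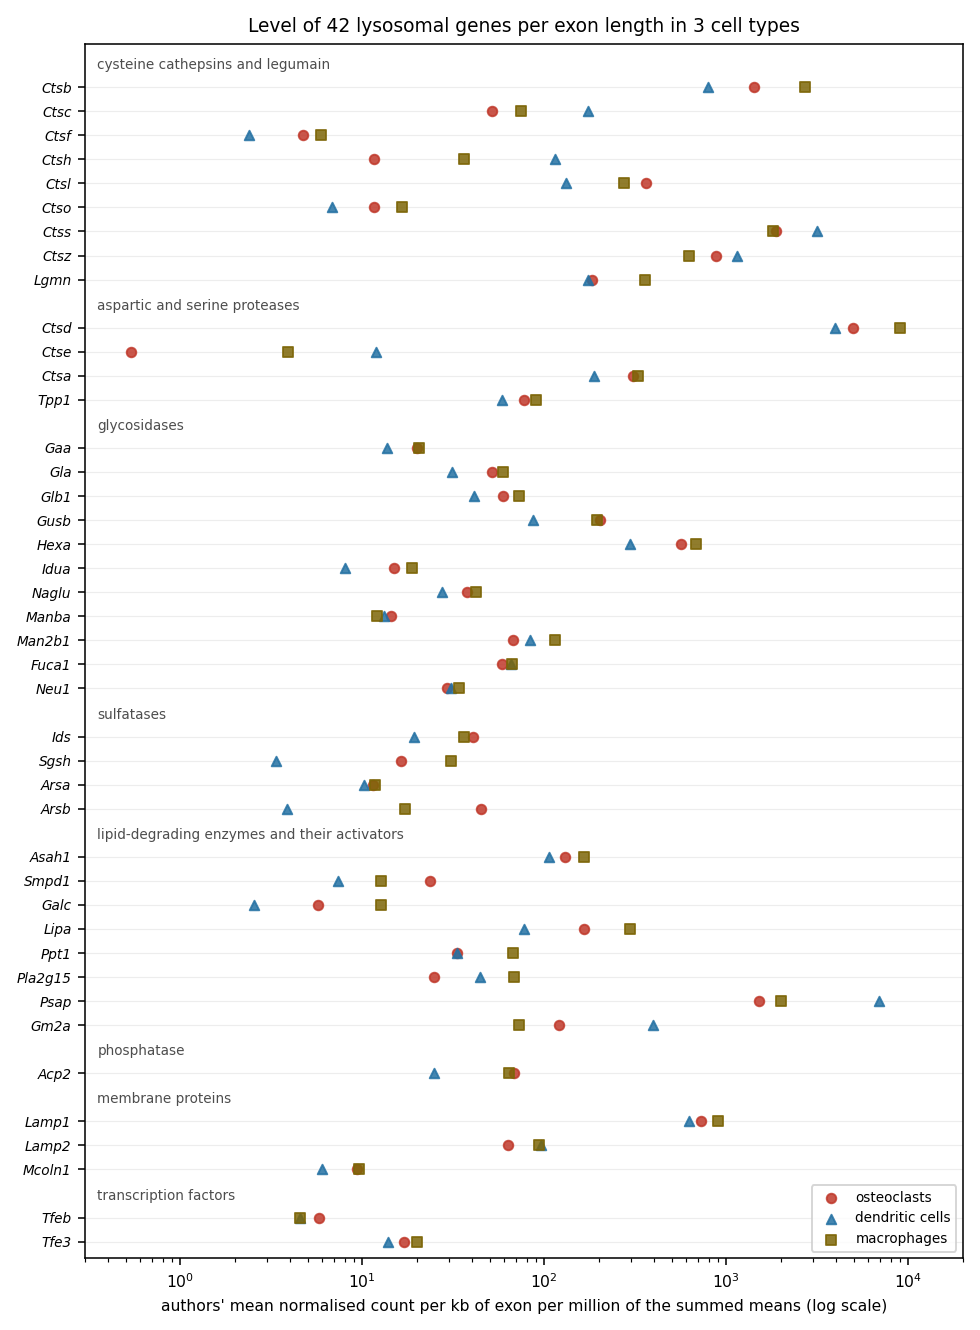
Level of each of the 42 genes per kilobase of exon, scaled to equal summed means (x axis, log scale) in osteoclasts (circles), dendritic cells (triangles) and macrophages (squares), grouped by role. Dendritic triangles stand to the right for Ctsc, Ctsh, Psap and Gm2a and to the left for Sgsh, Arsb and Galc, and the osteoclast circle of Ctse is the lowest point, at 0.532.

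RefSeq promoters (GRCm38.p6, 250 bases before to 50 after each start) were given for 38 of the 42 genes, 44 promoters in all. Ctsb, Ctse, Ctsh and Asah1 had no entry in the table used. The palindrome TCACGTGA, the core of the element bound by Tfeb and Tfe3, was in 4 of the 44, or 9.09%, against 0.974% of all 32851 promoters. Its shorter form TCACGTG, searched on both strands and nested around the E-box CACGTG, was in 11 of 44 (25.0%), against 3.77% of all. CACGTG itself was in 13 of 44 (29.5%), against 7.15% of all. The stretches below show the 4 genes with TCACGTGA, then Lamp1, with 4 matches to the shorter form in a row, and Sgsh, whose level varied most among the genes with a match. Capitals mark the motif, and each stretch reads 5′ to 3′ on the gene's strand.
Ctsa, chr2:164833749-164833778, plus strand: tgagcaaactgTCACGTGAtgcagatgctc
Ctsd, chr7:142387908-142387937, minus strand: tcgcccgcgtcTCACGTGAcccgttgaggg
Gla, chrX:134601163-134601255, minus strand: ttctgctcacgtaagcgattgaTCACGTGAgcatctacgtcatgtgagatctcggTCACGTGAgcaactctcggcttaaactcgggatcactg
Mcoln1, chr8:3500462-3500491, plus strand: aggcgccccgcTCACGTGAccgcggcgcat
Lamp1, chr8:13159069-13159160, plus strand: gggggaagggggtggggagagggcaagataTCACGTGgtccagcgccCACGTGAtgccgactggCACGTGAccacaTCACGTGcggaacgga
Sgsh, chr11:119355521-119355550, minus strand: ggcctgccgtgCACGTGAccgtggggagcg
A match describes letters in a window and is no evidence of binding. The 11 genes with TCACGTG were Arsa, Ctsa, Ctsd, Gaa, Gla, Glb1, Lamp1, Lgmn, Mcoln1, Naglu and Sgsh. In dendritic cells against macrophages 0 of them were called higher and 9 lower, and of the 27 genes whose promoter lacked it 6 were higher and 14 lower, by the calls of the authors' deposited table. For osteoclasts against dendritic cells the counts were 4 higher and 0 lower with the motif and 11 higher and 9 lower without it. For osteoclasts against macrophages they were 0 higher and 4 lower with it, and 4 higher and 7 lower without it. The 4 genes without an entry had 1, 1 and 0 higher and 2, 2 and 3 lower in that order of comparisons. Of all genes tested 20.3%, 16.8% and 14.5% were higher and 16.4%, 20.1% and 14.7% lower. Median log2 fold changes with the motif were -0.64, 0.33 and -0.25, and without it -0.47, 0.16 and -0.27. No test was made between genes with and without the motif.

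The comparison of osteoclasts with macrophages asks how the list differs between cells that share a precursor. By the authors' deposited table, 4 of the 42 genes were called higher in osteoclasts (Arsb, Ctsz, Gm2a and Smpd1) and 14 lower, 42.9% in all. Of all 17822 genes tested, 29.3% were called, 14.5% higher and 14.7% lower. The median member had a log2 fold change of -0.27, against -0.03 for all genes tested. At least 2-fold differences were called for 1 gene higher, Arsb, and 5 lower, Ctsh, Pla2g15, Galc, Ppt1 and Lgmn.

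Osteoclasts against dendritic cells gave 16 genes called higher and 11 lower, 64.3% of the 42, in the authors' deposited table. Of all 21217 genes tested, 36.9% were called, 16.8% higher and 20.1% lower. The median member differed by 0.18 on the log2 scale, against -0.05 for all genes tested. Scaling each cell type to an equal total, which shifts every log2 fold change of this comparison by 0.19, left 20 members higher and 9 lower. The same shift turned the split over all genes, which was 3554 higher and 4275 lower as deposited and 5321 higher and 3341 lower with equal totals.

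Dendritic cells against macrophages had the most members called: 7 higher (Ctsc, Ctsh, Ctss, Ctsz, Gm2a, Manba and Psap) and 25 lower, 76.2% of the 42, in the authors' deposited table. The table gives this comparison as macrophage over dendritic, and its signs were turned here. Of all 20730 genes tested, 36.7% were called, 20.3% higher and 16.4% lower. The median member differed by -0.47, against 0.05 for all genes tested. With equal totals every log2 fold change moved by -0.15, and 6 members were higher and 27 lower. Over all genes the split was 4212 higher and 3396 lower as deposited, and 3459 higher and 4623 lower with equal totals. The 3 comparisons share cell types and are not independent of each other.

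By the order of the means, 7 genes were highest in osteoclasts, 11 in dendritic cells and 24 in macrophages by the authors' deposited table. Lowest means fell on osteoclasts for 12 genes, on dendritic cells for 25 and on macrophages for 5. Fewer genes were called against both other cell types. Smpd1 and Arsb were called higher in osteoclasts than in either other cell type, and Ctsh, Man2b1, Lamp2 and Pla2g15 lower. Dendritic cells were called above both others for 6 genes and below both for 16. Macrophages were called above both for 10 and below both for 2. Neither these counts nor the order of the means was worked out over all genes, so no share stands beside them. Gaa, Neu1, Arsa, Lipa and Tfeb were called in none of the 3 comparisons.

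**Figure D3:**
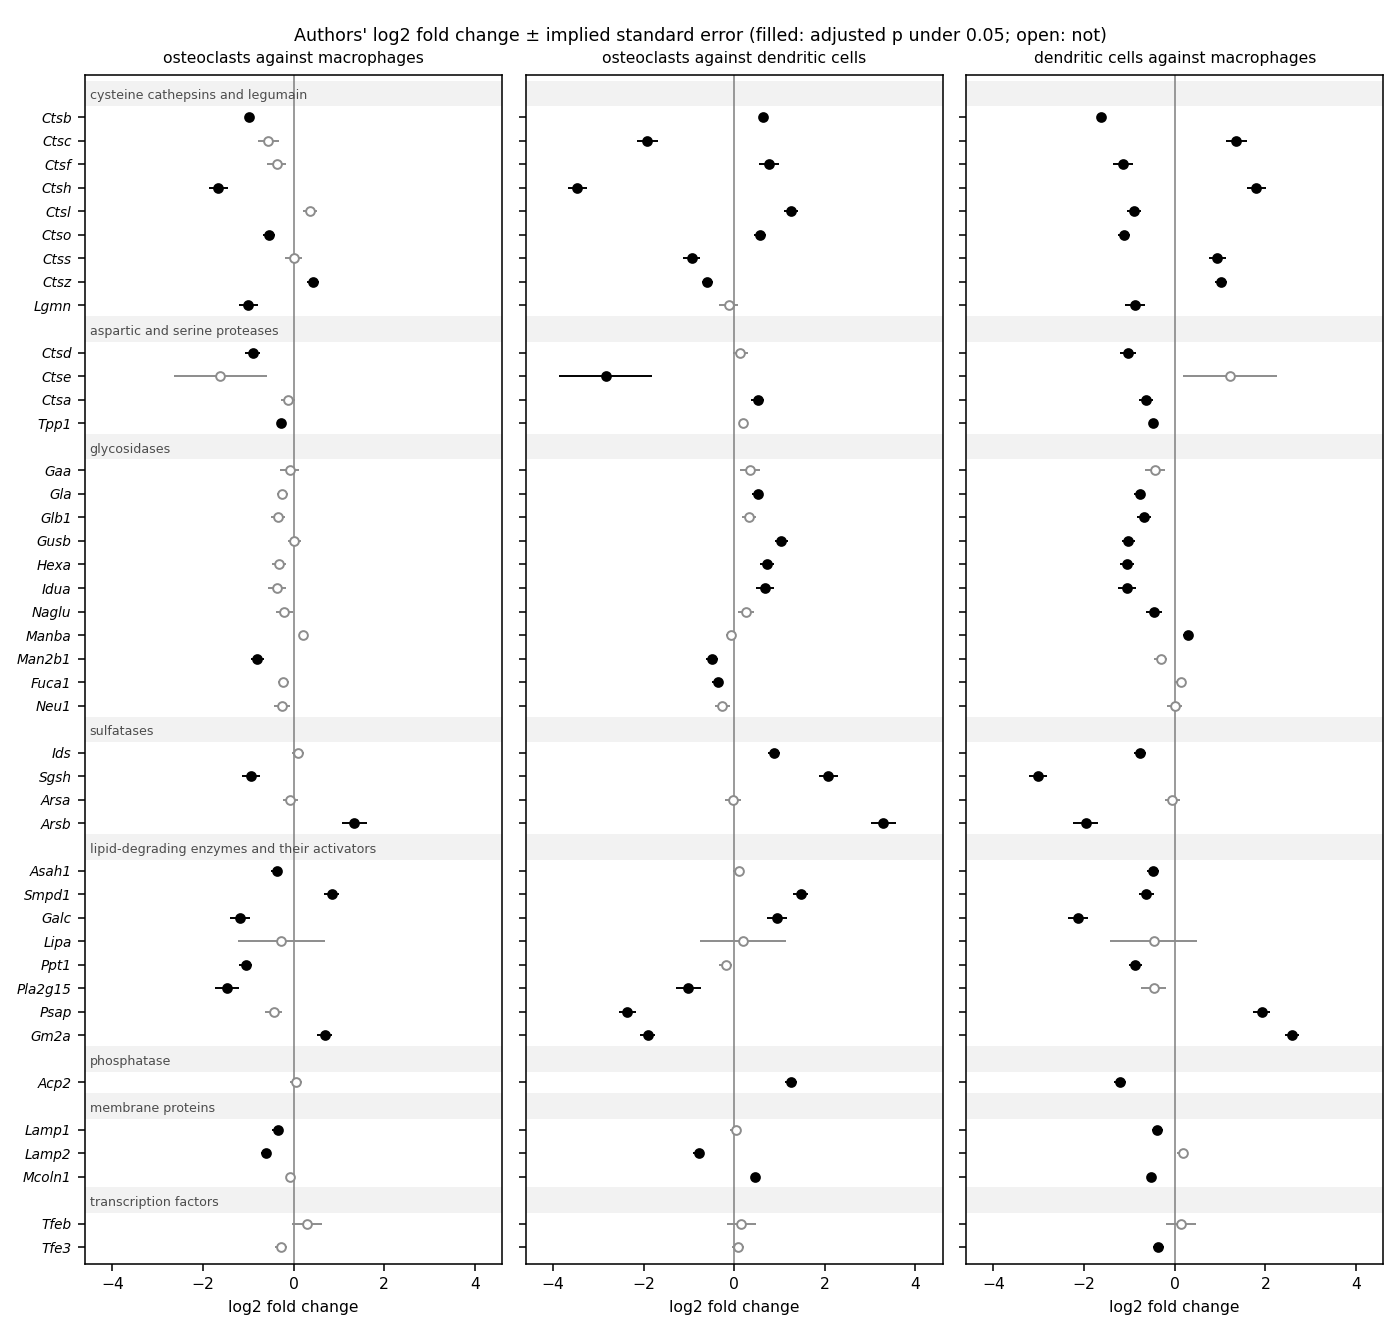
Authors' log2 fold changes of the 42 genes (x axis) with bars for the standard error that the authors' p-value implies, by role. Filled points have an authors' adjusted p under 0.05: 18 genes in osteoclasts against macrophages, 27 in osteoclasts against dendritic cells and 32 in dendritic cells against macrophages. The widest bars belong to Ctse and Lipa.

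The cysteine cathepsins with legumain make 9 genes, and all were called between dendritic cells and macrophages, 4 higher in dendritic cells and 5 lower, in the authors' deposited table. Osteoclasts had 4 higher and 4 lower than dendritic cells, and 1 higher and 4 lower than macrophages. In all 55.6% were called for osteoclasts against macrophages, 88.9% for osteoclasts against dendritic cells and 100.0% for dendritic cells against macrophages. All genes tested had 29.3%, 36.9% and 36.7% called in that order.

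Ctsb (cathepsin B, chromosome 14, 63122462 to 63145923) is an abundant protease of broad specificity. Its authors' mean in the authors' deposited table was 207699.9 in osteoclasts, 132577 in dendritic cells and 409598 in macrophages. Log2 fold changes of Ctsb were -0.98 ± 0.09 for osteoclasts against macrophages (adjusted p = 1.92e-23), 0.65 ± 0.09 for osteoclasts against dendritic cells (adjusted p = 5.27e-11) and -1.62 ± 0.09 for dendritic cells against macrophages (adjusted p = 1.8e-65). The level was thus lower in osteoclasts than in macrophages and lower still in dendritic cells, each step called. Ctsl, a related endopeptidase, had means in the authors' deposited table of 56753 in osteoclasts, 23588 in dendritic cells and 44318 in macrophages. The log2 fold change of Ctsl was 0.36 ± 0.15 for osteoclasts against macrophages (adjusted p = 0.062), 1.26 ± 0.15 for osteoclasts against dendritic cells (adjusted p = 1.56e-15) and -0.91 ± 0.15 for dendritic cells against macrophages (adjusted p = 2.04e-08). Ctsl stood higher in osteoclasts than in dendritic cells, and its difference from macrophages missed the threshold, but was called with equal totals (adjusted p = 0.0308).

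Ctss, which trims the invariant chain of class II molecules in antigen-presenting cells, had means in the authors' deposited table of 61647 in osteoclasts, 118876 in dendritic cells and 61633 in macrophages. It was 1.92-fold lower in osteoclasts than in dendritic cells (-0.94 ± 0.19, adjusted p = 4.78e-06), and 1.92-fold higher in dendritic cells than in macrophages (0.94 ± 0.19, adjusted p = 4.67e-06). Osteoclast and macrophage means were close and not called apart. Ctss lies 17.4 kb from Ctsk on chromosome 3, whose means were 87805 in osteoclasts, 1472 in dendritic cells and 137 in macrophages by the authors' deposited table. These neighbouring cathepsin genes therefore had different orders of cell types.

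Ctsh (chromosome 9, 90054152 to 90076089), mainly an aminopeptidase, showed the widest gap of the cathepsins called in all 3 comparisons. Its means in the authors' deposited table were 1266 in osteoclasts, 14283 in dendritic cells and 4054 in macrophages. It was 11.03-fold lower in osteoclasts than in dendritic cells. For Ctsh the authors' log2 fold changes were -1.66 ± 0.21 for osteoclasts against macrophages (adjusted p = 5.68e-14), -3.46 ± 0.21 for osteoclasts against dendritic cells (adjusted p = 9.1e-61) and 1.80 ± 0.21 for dendritic cells against macrophages (adjusted p = 4.81e-17). Ctsc, which activates the serine proteases of granules, followed the same order, with means of 7287 in osteoclasts, 27943 in dendritic cells and 10799 in macrophages by the authors' deposited table. Ctsc differed by -0.56 ± 0.23 for osteoclasts against macrophages (adjusted p = 0.0513), -1.92 ± 0.23 for osteoclasts against dendritic cells (adjusted p = 1.67e-15) and 1.36 ± 0.23 for dendritic cells against macrophages (adjusted p = 3.54e-08) on the log2 scale. The osteoclast and macrophage levels of Ctsc were not called apart. Markers of neutrophils and mast cells, whose granule proteases Ctsc activates, had in dendritic cultures the sums given above, and their part in this value was not tested.

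Ctsz, a carboxypeptidase, was the 1 gene of these 9 called higher in osteoclasts than in macrophages as deposited, as was the marker Ctsk outside the list. Its means in the authors' deposited table were 30455 in osteoclasts, 45959 in dendritic cells and 22508 in macrophages. On the log2 scale Ctsz differed by 0.43 ± 0.13 for osteoclasts against macrophages (adjusted p = 0.00458), -0.59 ± 0.13 for osteoclasts against dendritic cells (adjusted p = 3.04e-05) and 1.03 ± 0.13 for dendritic cells against macrophages (adjusted p = 4.14e-14). Macrophages were the low end of this gene, the reverse of their place for Ctsb.

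Ctso and Ctsf, both low cysteine cathepsins, and Lgmn, the asparaginyl endopeptidase that processes other cathepsins, were called lower in dendritic cells than in macrophages. Ctso had means in the authors' deposited table of 1441 in osteoclasts, 967 in dendritic cells and 2112 in macrophages. The authors' fold changes of Ctso were -0.55 ± 0.13 for osteoclasts against macrophages (adjusted p = 0.00028), 0.57 ± 0.13 for osteoclasts against dendritic cells (adjusted p = 9.33e-05) and -1.12 ± 0.13 for dendritic cells against macrophages (adjusted p = 5.35e-16), as log2. Lgmn had means in the authors' deposited table of 10309.9 in osteoclasts, 11226 in dendritic cells and 20769.5 in macrophages. Fold changes of Lgmn, as log2, were -1.0002 ± 0.22 for osteoclasts against macrophages (adjusted p = 3.82e-05), -0.12 ± 0.22 for osteoclasts against dendritic cells (adjusted p = 0.721) and -0.88 ± 0.22 for dendritic cells against macrophages (adjusted p = 0.000222). Lgmn was high in macrophages alone, while Ctso fell into 3 called levels with osteoclasts in the middle.

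For Ctsf, low enough for reads per library to be recovered, normalised reads were 586, 626, 556 and 525 in the osteoclast libraries. They were 403, 292, 377 and 267 in the dendritic libraries and 1094, 709, 564 and 616 in the macrophage libraries. Osteoclast and macrophage libraries overlapped, and all dendritic libraries lay below both. Means were 573 ± 43.1 in osteoclasts, 335 ± 65.5 in dendritic cells and 746 ± 239.6 in macrophages (SD, n = 4 each). Two-sided exact permutation tests gave p = 0.0286 for osteoclasts against dendritic cells and for dendritic cells against macrophages, the smallest that 4 against 4 allows, and 0.105 after adjustment over the 11 such tests made. For osteoclasts against macrophages the exact p was 0.171. No exact test of Ctsf thus passed after adjustment. Even the smallest possible p came to 0.105 here, so these tests cannot decide whether the authors' calls hold. Its log2 fold change was 0.77 ± 0.22, adjusted p = 0.00153 for osteoclasts against dendritic cells and -1.14 ± 0.22, adjusted p = 7.38e-07 for dendritic cells against macrophages by the authors' deposited table.

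The aspartic and serine proteases had 0 genes higher and 2 lower in osteoclasts than in macrophages, in the authors' deposited table. Osteoclasts against dendritic cells gave 1 higher and 1 lower, and dendritic cells against macrophages 0 higher and 3 lower. Calls thus covered 2, 2 and 3 of these 4 genes, where all genes tested had 29.3%, 36.9% and 36.7% called. Ctsd (chromosome 7, 142375911 to 142388038), the gene with the second promoter stretch above, had means in the authors' deposited table of 284037 in osteoclasts, 258929 in dendritic cells and 531813 in macrophages. In log2 terms Ctsd differed by -0.90 ± 0.17 for osteoclasts against macrophages (adjusted p = 1.17e-06), 0.13 ± 0.17 for osteoclasts against dendritic cells (adjusted p = 0.595) and -1.03 ± 0.17 for dendritic cells against macrophages (adjusted p = 5.85e-09). Ctsd was 1.87-fold lower in osteoclasts and 2.04-fold lower in dendritic cells than in macrophages, and osteoclasts and dendritic cells were not called apart. Ctsa, a carboxypeptidase that also protects Neu1 and Glb1 from degradation, had means in the authors' deposited table of 35225 in osteoclasts, 24602 in dendritic cells and 38445 in macrophages. Log2 fold changes of Ctsa were -0.13 ± 0.15 for osteoclasts against macrophages (adjusted p = 0.598), 0.52 ± 0.15 for osteoclasts against dendritic cells (adjusted p = 0.00264) and -0.64 ± 0.15 for dendritic cells against macrophages (adjusted p = 0.000117). Dendritic cells were the low end of this gene. Tpp1, a tripeptidyl peptidase, had means in the authors' deposited table of 9621 in osteoclasts, 8366 in dendritic cells and 11615 in macrophages. The log2 fold change of Tpp1 was -0.27 ± 0.09 for osteoclasts against macrophages (adjusted p = 0.0153), 0.20 ± 0.09 for osteoclasts against dendritic cells (adjusted p = 0.0758) and -0.47 ± 0.09 for dendritic cells against macrophages (adjusted p = 2.4e-06). The call against macrophages was lost with equal totals (adjusted p = 0.0505) and a call against dendritic cells was gained (adjusted p = 9.69e-05).

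Libraries of the same cell type disagreed for Ctse, an aspartic protease of endosomes. Its means in the authors' deposited table were 40.9 in osteoclasts, 1044 in dendritic cells and 309.8 in macrophages. The osteoclast libraries held 1.99, 1.99, 89.1 and 70.5 normalised reads and the macrophage libraries 5.75, 645, 2.92 and 586. In each of these cell types 2 libraries were close to empty and 2 were not. For dendritic cells the mean allowed 2 solutions, 61.0, 2040, 140 and 1936 or 1772, 1999, 128 and 278. In both of them 2 dendritic libraries lay at or under 278 and 2 at or over 1772. The table does not tie a library to an experiment, so whether the same mice gave the high libraries of each cell type was not tested. For Ctse the authors' log2 fold changes were -1.62 ± 1.03 for osteoclasts against macrophages (adjusted p = 0.251), -2.84 ± 1.03 for osteoclasts against dendritic cells (adjusted p = 0.0184) and 1.22 ± 1.03 for dendritic cells against macrophages (adjusted p = 0.395). An exact permutation test of osteoclasts against macrophages gave p = 0.286. The ratio of the means was larger than the deposited fold change, at -2.89 and -4.64 on the log2 scale with a pseudocount of 1 for osteoclasts against macrophages and against dendritic cells.

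**Figure D4:**
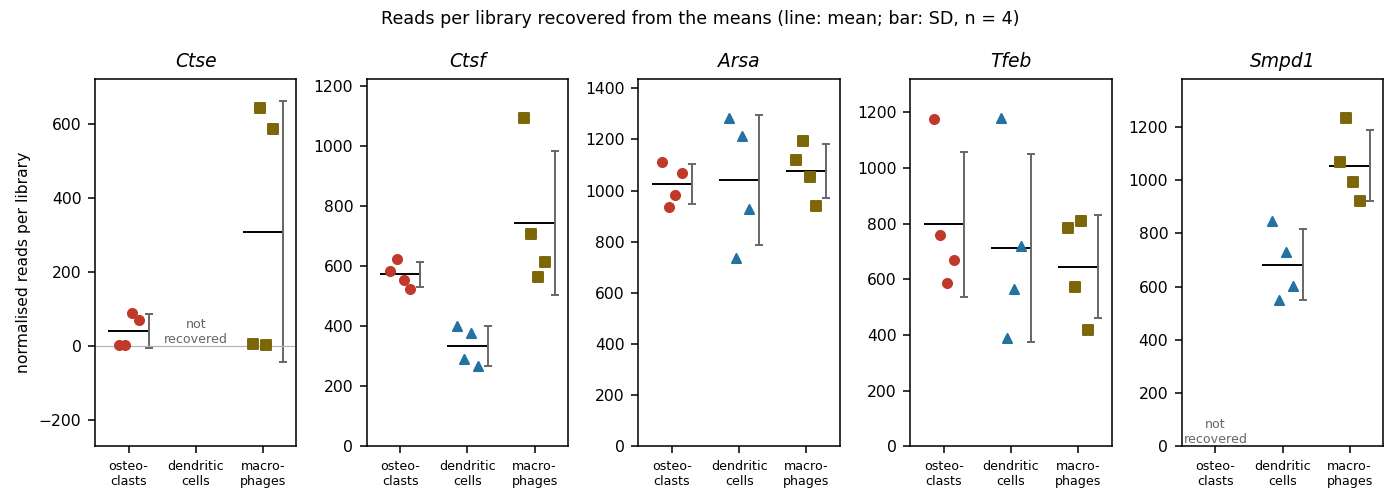
Normalised reads per library (y axis) of 5 low members, recovered from the authors' means, in osteoclasts, dendritic cells and macrophages; lines are means and bars SD (n = 4). Ctse splits into libraries near 0 and libraries over 500 in macrophages, all dendritic libraries of Ctsf lie below the other cell types, and Arsa and Tfeb overlap throughout; "not recovered" marks a cell type whose reads had no single solution or exceeded the limit.

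Glycosidases take sugars off glycoproteins, glycolipids and glycosaminoglycans. Of 11, 1 was higher and 6 lower in dendritic cells than in macrophages by the authors' deposited table, and 4 were higher and 2 lower in osteoclasts than in dendritic cells. As deposited, Man2b1 was the 1 gene called between osteoclasts and macrophages. Gla, Gusb, Hexa and Idua were called below both other cell types in dendritic cells. The median log2 fold change of the 11 was -0.25 for osteoclasts against macrophages, 0.33 for osteoclasts against dendritic cells and -0.46 for dendritic cells against macrophages, where all genes tested had -0.03, -0.05 and 0.05. Shares called were 9.09%, 54.5% and 63.6% of the 11 in that order, against 29.3%, 36.9% and 36.7% of all genes tested.

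Gusb (beta-glucuronidase) had means in the authors' deposited table of 22352 in osteoclasts, 10871 in dendritic cells and 22219 in macrophages. It was higher by 2.05-fold in osteoclasts than in dendritic cells (1.04 ± 0.14, adjusted p = 5.73e-12) and 2.04-fold lower in dendritic cells than in macrophages (-1.03 ± 0.14, adjusted p = 8.55e-12). Hexa, the alpha subunit of beta-hexosaminidase, followed with 27124 in osteoclasts, 16293 in dendritic cells and 33985 in macrophages by the authors' deposited table. Hexa differed by 0.73 ± 0.15 for osteoclasts against dendritic cells (adjusted p = 1.03e-05) and -1.06 ± 0.15 for dendritic cells against macrophages (adjusted p = 5.3e-11) on the log2 scale. Both genes had dendritic cells alone at the low end.

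Gla (alpha-galactosidase A, on chromosome X), whose promoter stretch above holds TCACGTGA 2 times, had means in the authors' deposited table of 4069.9 in osteoclasts, 2826 in dendritic cells and 4840.3 in macrophages. On the log2 scale Gla differed by 0.52 ± 0.12 for osteoclasts against dendritic cells (adjusted p = 9.16e-05) and -0.77 ± 0.12 for dendritic cells against macrophages (adjusted p = 2.09e-09). Idua, which removes iduronic acid from heparan and dermatan sulfate, had means in the authors' deposited table of 1520.0 in osteoclasts, 938 in dendritic cells and 1969.6 in macrophages. The authors' fold changes of Idua were 0.69 ± 0.20 for osteoclasts against dendritic cells (adjusted p = 0.00215) and -1.06 ± 0.20 for dendritic cells against macrophages (adjusted p = 6.92e-07), as log2. Its 4 dendritic libraries were 840.5, 835, 1331 and 748 normalised reads, so 1 library stood above the other 3. Neither gene was called between osteoclasts and macrophages.

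Glb1 (beta-galactosidase) and Naglu, an enzyme of heparan sulfate breakdown, were each called once, lower in dendritic cells than in macrophages. Glb1 had means in the authors' deposited table of 4299.7 in osteoclasts, 3412 in dendritic cells and 5448 in macrophages. Its log2 fold change was -0.67 ± 0.15, adjusted p = 4.7e-05 for dendritic cells against macrophages. Naglu had means in the authors' deposited table of 2424 in osteoclasts, 2026 in dendritic cells and 2797 in macrophages, with -0.46 ± 0.18, adjusted p = 0.033 for that comparison. With equal totals both were also called higher in osteoclasts than in dendritic cells, with adjusted p of 0.00179 for Glb1 and 0.0351 for Naglu.

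No mannosidase or fucosidase of the list was called lower in dendritic cells as deposited. Man2b1, an alpha-mannosidase, had means in the authors' deposited table of 13144 in osteoclasts, 18493 in dendritic cells and 22967 in macrophages. Fold changes of Man2b1, as log2, were -0.80 ± 0.14 for osteoclasts against macrophages (adjusted p = 1.35e-07) and -0.49 ± 0.14 for osteoclasts against dendritic cells (adjusted p = 0.00164). The call against dendritic cells was lost with equal totals (adjusted p = 0.0739), and one for dendritic cells against macrophages was gained (adjusted p = 0.00322). Manba, the beta-mannosidase, had means in the authors' deposited table of 2424 in osteoclasts, 2548 in dendritic cells and 2090.0 in macrophages. Its single call, 0.29 ± 0.10, adjusted p = 0.012 for dendritic cells against macrophages, was lost with equal totals (adjusted p = 0.292) and upper-quartile scaling (0.0796). Fuca1, the alpha-fucosidase, had means in the authors' deposited table of 4618 in osteoclasts, 5940.0 in dendritic cells and 5424 in macrophages. Its single call, -0.36 ± 0.12, adjusted p = 0.00745 for osteoclasts against dendritic cells, was lost with equal totals (adjusted p = 0.268). These 3 genes varied by less than a factor of 2 over the cell types.

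Gaa (acid alpha-glucosidase) and Neu1 (a sialidase) were called nowhere. Gaa had means in the authors' deposited table of 2308 in osteoclasts, 1808 in dendritic cells and 2455 in macrophages. Its largest fold change was -0.44 ± 0.21, adjusted p = 0.0992 for dendritic cells against macrophages, and with equal totals it was called there (adjusted p = 0.0184) and against osteoclasts (0.0296). Neu1 had means in the authors' deposited table of 2654 in osteoclasts, 3179 in dendritic cells and 3175 in macrophages, and its largest fold change was -0.26 ± 0.17, adjusted p = 0.243 for osteoclasts against dendritic cells. A difference of Neu1 that misses the threshold does not show equal levels.

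Sulfatases, which remove sulfate from sugar chains and lipids, held the largest difference of the list in favour of osteoclasts, that of Arsb over dendritic cells. Of 4, 1 was higher and 1 lower in osteoclasts than in macrophages, 3 were higher and 0 lower in osteoclasts than in dendritic cells, and 0 were higher and 3 lower in dendritic cells than in macrophages, in the authors' deposited table. Over all genes tested, 14.5%, 16.8% and 20.3% were called higher and 14.7%, 20.1% and 16.4% lower in that order.

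Arsb (chromosome 13, 93771630 to 93943016), which acts on dermatan and chondroitin sulfate, had means in the authors' deposited table of 6601 in osteoclasts, 647 in dendritic cells and 2577 in macrophages. It was 2.52-fold higher in osteoclasts than in macrophages and 9.81-fold higher than in dendritic cells. In log2 terms Arsb differed by 1.33 ± 0.27 for osteoclasts against macrophages (adjusted p = 1.4e-05), 3.29 ± 0.28 for osteoclasts against dendritic cells (adjusted p = 2.29e-31) and -1.96 ± 0.28 for dendritic cells against macrophages (adjusted p = 1.32e-11). Its dendritic libraries held 680, 731, 648 and 530 normalised reads, all under every other mean of the gene. Exons of Gm26527 on the opposite strand cover 1948 bases, or 32.3%, of the Arsb exons in GENCODE M21. Gm26527 had means of 4825 in osteoclasts, 538 in dendritic cells and 1961 in macrophages by the authors' deposited table, 73.1%, 83.1% and 76.1% of those of Arsb. With the strand setting of the counting not given in the sources used here, reads of these genes cannot be told apart.

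Sgsh (chromosome 11, 119343425 to 119355536), the heparan sulfatase with the last promoter stretch above, had means in the authors' deposited table of 1749 in osteoclasts, 408 in dendritic cells and 3375 in macrophages. It was 8.11-fold lower in dendritic cells than in macrophages, the largest such difference of the list. Log2 fold changes of Sgsh were -0.94 ± 0.20 for osteoclasts against macrophages (adjusted p = 2.9e-05), 2.08 ± 0.20 for osteoclasts against dendritic cells (adjusted p = 2.75e-23) and -3.02 ± 0.20 for dendritic cells against macrophages (adjusted p = 1.57e-48). Dendritic libraries held 414, 342, 507 and 370 normalised reads. Its neighbour Gaa, 58.0 kb away on the same chromosome, was called in no comparison. Card14 overlaps 955 bases of Sgsh exon on the opposite strand, and its mean was 13.4% of that of Sgsh in osteoclasts, 2.62% in dendritic cells and 0.673% in macrophages by the authors' deposited table.

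Ids, the iduronate sulfatase on chromosome X, had means in the authors' deposited table of 4987 in osteoclasts, 2716 in dendritic cells and 4638 in macrophages. The log2 fold change of Ids was 0.87 ± 0.13 for osteoclasts against dendritic cells (adjusted p = 2.03e-10) and -0.77 ± 0.13 for dendritic cells against macrophages (adjusted p = 2.87e-08). Arsa (arylsulfatase A, which acts on sulfatide) was called in no comparison. Its libraries held 1112, 938, 983 and 1067 normalised reads in osteoclasts, 1283, 737, 1213 and 927 in dendritic cells, and 1121, 1193, 1054 and 942 in macrophages. The 3 groups of libraries overlapped. Means were 1025 ± 79.1 in osteoclasts, 1040.0 ± 254 in dendritic cells and 1077 ± 107 in macrophages (SD, n = 4 each), with exact permutation p of 0.486 for osteoclasts against macrophages, 0.943 for osteoclasts against dendritic cells and 0.829 for dendritic cells against macrophages. The log2 ratio of the Arsa means stayed between -0.17 and 0.10 over the 3 comparisons when any library was left out.

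Of 8 enzymes of lipid breakdown and their activators, 2 were higher and 4 lower in osteoclasts than in macrophages, 2 higher and 3 lower in osteoclasts than in dendritic cells, and 2 higher and 4 lower in dendritic cells than in macrophages, by the authors' deposited table. Called in either direction were thus 6, 5 and 6 of the 8 in that order. Among all genes tested the shares called were 29.3%, 36.9% and 36.7%. The 2 higher in dendritic cells than in macrophages were both activators without enzymatic activity of their own, Psap and Gm2a.

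Psap (chromosome 10, 60277627 to 60302597) had means in the authors' deposited table of 100732 in osteoclasts, 522586 in dendritic cells and 136677 in macrophages. It was 5.12-fold lower in osteoclasts than in dendritic cells and 3.78-fold higher in dendritic cells than in macrophages. For Psap the authors' log2 fold changes were -0.44 ± 0.19 for osteoclasts against macrophages (adjusted p = 0.0649), -2.36 ± 0.19 for osteoclasts against dendritic cells (adjusted p = 2.72e-34) and 1.92 ± 0.19 for dendritic cells against macrophages (adjusted p = 4.88e-23). Osteoclasts and macrophages were not called apart as deposited, but were under upper-quartile scaling (adjusted p = 0.0464). Gm2a (chromosome 11, 55098115 to 55113029), the activator that presents gangliosides to beta-hexosaminidase, had means in the authors' deposited table of 11983 in osteoclasts, 45278 in dendritic cells and 7449 in macrophages. It was 6.01-fold higher in dendritic cells than in macrophages, the largest difference of the list in that direction. Gm2a differed by 0.68 ± 0.16 for osteoclasts against macrophages (adjusted p = 0.000277), -1.91 ± 0.16 for osteoclasts against dendritic cells (adjusted p = 1.07e-29) and 2.59 ± 0.16 for dendritic cells against macrophages (adjusted p = 3.52e-54) on the log2 scale. Hexa, the enzyme subunit that Gm2a serves, had its lowest mean in dendritic cells.

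Smpd1 (acid sphingomyelinase, chromosome 7, 105554360 to 105558389) was, with Arsb, one of the pair called highest in osteoclasts. Its means in the authors' deposited table were 1894 in osteoclasts, 683 in dendritic cells and 1055 in macrophages. On the log2 scale Smpd1 differed by 0.84 ± 0.16 for osteoclasts against macrophages (adjusted p = 2.34e-06), 1.46 ± 0.16 for osteoclasts against dendritic cells (adjusted p = 1.95e-18) and -0.62 ± 0.16 for dendritic cells against macrophages (adjusted p = 0.000517). Dendritic libraries held 848, 550, 731 and 603 normalised reads and macrophage libraries 1070, 1233, 995 and 921, without overlap. Their means were 683 ± 134 in dendritic cells and 1055 ± 134 in macrophages (SD, n = 4 each), with an exact permutation p of 0.0286, or 0.105 after adjustment over 11 tests. Tpp1, 186 kb away on the same chromosome, was not highest in osteoclasts.

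Galc (galactosylceramidase, chromosome 12, 98202294 to 98259459) had means in the authors' deposited table of 2048 in osteoclasts, 1053 in dendritic cells and 4709 in macrophages. The authors' fold changes of Galc were -1.19 ± 0.22 for osteoclasts against macrophages (adjusted p = 8.36e-07), 0.95 ± 0.22 for osteoclasts against dendritic cells (adjusted p = 7.76e-05) and -2.14 ± 0.22 for dendritic cells against macrophages (adjusted p = 3.08e-21), as log2. Its 3 levels were all called apart, with macrophages at the top. Dendritic libraries of Galc held 986, 1165, 1199 and 860.5 normalised reads. Asah1, the acid ceramidase, had means in the authors' deposited table of 10719 in osteoclasts, 9999 in dendritic cells and 13930.5 in macrophages. Fold changes of Asah1, as log2, were -0.38 ± 0.13 for osteoclasts against macrophages (adjusted p = 0.0135), 0.10 ± 0.13 for osteoclasts against dendritic cells (adjusted p = 0.599) and -0.48 ± 0.13 for dendritic cells against macrophages (adjusted p = 0.000753). Macrophages were above both others for Asah1 too, by less than a factor of 2.

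Ppt1, which removes palmitate from proteins, and Pla2g15, a lysosomal phospholipase, were among the 5 genes called at least 2-fold lower in osteoclasts than in macrophages. Ppt1 had means in the authors' deposited table of 2952 in osteoclasts, 3365 in dendritic cells and 6180.0 in macrophages. In log2 terms Ppt1 differed by -1.06 ± 0.15 for osteoclasts against macrophages (adjusted p = 1.07e-11), -0.19 ± 0.15 for osteoclasts against dendritic cells (adjusted p = 0.338) and -0.87 ± 0.15 for dendritic cells against macrophages (adjusted p = 1.51e-08). Cap1 shares 129 exon bases with Ppt1 on the opposite strand, and its mean was 987% of that of Ppt1 in osteoclasts, 692% in dendritic cells and 657% in macrophages by the authors' deposited table. The part of Cap1 reads in the Ppt1 count was not tested. Pla2g15 had means in the authors' deposited table of 1816 in osteoclasts, 3695 in dendritic cells and 5134 in macrophages. Log2 fold changes of Pla2g15 were -1.48 ± 0.27 for osteoclasts against macrophages (adjusted p = 5.67e-07), -1.01 ± 0.27 for osteoclasts against dendritic cells (adjusted p = 0.000718) and -0.47 ± 0.27 for dendritic cells against macrophages (adjusted p = 0.17). Osteoclasts were below both others for Pla2g15, and only macrophages above both for Ppt1.

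Lipa, the acid lipase that frees cholesterol from its esters, had means in the authors' deposited table of 27166 in osteoclasts, 14555 in dendritic cells and 50033 in macrophages. The log2 fold change of Lipa was -0.27 ± 0.95 for osteoclasts against macrophages (adjusted p = 0.881), 0.20 ± 0.95 for osteoclasts against dendritic cells (adjusted p = 0.904) and -0.47 ± 0.95 for dendritic cells against macrophages (adjusted p = 0.768). None was called. The implied standard error of 0.95 was the second largest of the list after that of Ctse. The log2 ratio of the means for dendritic cells against macrophages was -1.78 with a pseudocount of 1, against the deposited -0.47. Lipa is too high for its reads per library to be recovered, so the spread behind that error cannot be shown.

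Acp2, the lysosomal acid phosphatase, had means in the authors' deposited table of 8563 in osteoclasts, 3569 in dendritic cells and 8289.7 in macrophages. It was higher by 2.39-fold in osteoclasts than in dendritic cells (1.26 ± 0.13, adjusted p = 2.86e-20) and 2.32-fold lower in dendritic cells than in macrophages (-1.21 ± 0.13, adjusted p = 7.21e-19). Its level in osteoclasts was close to that in macrophages. Acp5, the tartrate-resistant acid phosphatase used as an osteoclast marker and not a member, had means in the authors' deposited table of 84237 in osteoclasts, 4934 in dendritic cells and 238 in macrophages.

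Of the 3 membrane proteins, 0 were higher and 2 lower in osteoclasts than in macrophages, 1 was higher and 1 lower in osteoclasts than in dendritic cells, and 0 were higher and 2 lower in dendritic cells than in macrophages, in the authors' deposited table. Each comparison thus called 66.7% of the 3, where all genes tested had 29.3%, 36.9% and 36.7%. Lamp1, an abundant glycoprotein of the lysosomal membrane with 4 motif matches in the stretch above, had means in the authors' deposited table of 47313 in osteoclasts, 46269 in dendritic cells and 60547 in macrophages. For Lamp1 the authors' log2 fold changes were -0.35 ± 0.12 for osteoclasts against macrophages (adjusted p = 0.0124), 0.03 ± 0.12 for osteoclasts against dendritic cells (adjusted p = 0.875) and -0.39 ± 0.12 for dendritic cells against macrophages (adjusted p = 0.00403). Lamp2, its paralog on chromosome X, which also takes part in chaperone-mediated autophagy, had means in the authors' deposited table of 14688 in osteoclasts, 25301 in dendritic cells and 22442 in macrophages. Lamp2 differed by -0.61 ± 0.12 for osteoclasts against macrophages (adjusted p = 3.98e-06), -0.78 ± 0.12 for osteoclasts against dendritic cells (adjusted p = 4.51e-10) and 0.17 ± 0.12 for dendritic cells against macrophages (adjusted p = 0.274) on the log2 scale. Lamp1 was called higher in macrophages than in either other cell type, and its osteoclast and dendritic levels were not called apart. Lamp2 was called lower in osteoclasts than in either other cell type. Mcoln1, a calcium channel of the lysosomal membrane, had means in the authors' deposited table of 1716 in osteoclasts, 1251 in dendritic cells and 1809 in macrophages. On the log2 scale Mcoln1 differed by -0.08 ± 0.08 for osteoclasts against macrophages (adjusted p = 0.557), 0.46 ± 0.08 for osteoclasts against dendritic cells (adjusted p = 5.92e-07) and -0.53 ± 0.08 for dendritic cells against macrophages (adjusted p = 3.31e-09). Its dendritic libraries held 1317, 1183, 1355 and 1151 normalised reads.

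Of the 2 transcription factors, 0 were called in either comparison of osteoclasts, and 1 was lower in dendritic cells than in macrophages by the authors' deposited table. Over all genes tested, 36.7% were called in that last comparison, and 29.3% and 36.9% in those of osteoclasts against macrophages and dendritic cells. Tfeb libraries held 1175, 758, 588 and 668 normalised reads in osteoclasts, 1178, 390, 566 and 720 in dendritic cells, and 783, 572, 809 and 420 in macrophages. The 3 groups overlapped across most of their range. Means were 797 ± 261 in osteoclasts, 713 ± 338 in dendritic cells and 646 ± 184 in macrophages (SD, n = 4 each), with exact permutation p of 0.429 for osteoclasts against macrophages, 0.657 for osteoclasts against dendritic cells and 0.857 for dendritic cells against macrophages. Leaving out 1 library moved the log2 ratio between -0.09 and 0.51 for osteoclasts against dendritic cells and between -0.21 and 0.35 for dendritic cells against macrophages, so its sign rests on single libraries. Tfe3, on chromosome X, had means in the authors' deposited table of 3793 in osteoclasts, 3570.2 in dendritic cells and 4601 in macrophages. The authors' fold changes of Tfe3 were -0.28 ± 0.12 for osteoclasts against macrophages (adjusted p = 0.0793), 0.09 ± 0.12 for osteoclasts against dendritic cells (adjusted p = 0.648) and -0.36 ± 0.12 for dendritic cells against macrophages (adjusted p = 0.0115), as log2. Only the difference between dendritic cells and macrophages was called for Tfe3.

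Genes of the same pathway outside the list were counted in the same way, by lists drawn up beside it. Of 25 further lysosomal enzymes, 2 were higher and 7 lower of 24 tested in osteoclasts against macrophages, 9 higher and 8 lower of 25 in osteoclasts against dendritic cells, and 4 higher and 10 lower of 25 in dendritic cells against macrophages, in the authors' deposited table. The share called was 37.5%, 68.0% and 56.0%, against 29.3%, 36.9% and 36.7% of all genes tested. Naaa, which hydrolyses N-acylethanolamines, had means in the authors' deposited table of 1886 in osteoclasts, 19540.2 in dendritic cells and 434 in macrophages, and was called in each comparison. Plbd1, a phospholipase B-like protein, had means in the authors' deposited table of 20.8 in osteoclasts, 7837 in dendritic cells and 10.5 in macrophages. It was the most extreme of these enzymes, with a log2 fold change of 9.42 ± 0.27 for dendritic cells against macrophages. Scpep1, a serine carboxypeptidase, had means of 4386 in osteoclasts, 3440.2 in dendritic cells and 7325 in macrophages and Hgsnat, the acetyltransferase of heparan sulfate breakdown, 5675 in osteoclasts, 2326 in dendritic cells and 5585 in macrophages, by the authors' deposited table. Hyal1, a hyaluronidase, had 1006 in osteoclasts, 188 in dendritic cells and 638 in macrophages by the authors' deposited table. Hgsnat and Hyal1 were called higher in osteoclasts than in dendritic cells. Ggh, which trims folate polyglutamates, had 1399 in osteoclasts, 2830.0 in dendritic cells and 2271 in macrophages and Sumf1, which activates the sulfatases, 2845 in osteoclasts, 2345 in dendritic cells and 3636 in macrophages by the authors' deposited table. Sumf1 had its lowest mean in dendritic cells, as did Sgsh, Arsb and Ids, while Arsa, the other sulfatase of the list, had its lowest in osteoclasts and was called in no comparison.

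Another list holds genes for mannose 6-phosphate tagging and sorting. Of 13, 4 were higher and 3 lower in osteoclasts than in macrophages, 7 higher and 1 lower in osteoclasts than in dendritic cells, and 2 higher and 5 lower in dendritic cells than in macrophages, in the authors' deposited table. For these 13 the median log2 fold change was 0.02, 0.27 and -0.12 in that order of comparisons, where all genes tested had -0.03, -0.05 and 0.05. Their shares called were 53.8%, 61.5% and 53.8%, against 29.3%, 36.9% and 36.7% of all genes tested. Gnptab, the phosphotransferase that starts the tag, had means in the authors' deposited table of 8348 in osteoclasts, 2679 in dendritic cells and 5545 in macrophages. Fold changes of Gnptab, as log2, were 0.58 ± 0.22 for osteoclasts against macrophages (adjusted p = 0.0272), 1.62 ± 0.22 for osteoclasts against dendritic cells (adjusted p = 9.16e-13) and -1.04 ± 0.22 for dendritic cells against macrophages (adjusted p = 1.01e-05). M6pr, a receptor for the tag, had means of 17182 in osteoclasts, 11890.2 in dendritic cells and 9753 in macrophages and was called apart in each comparison in the authors' deposited table. Gga2, a sorting adaptor, had 3592 in osteoclasts, 1410.2 in dendritic cells and 1533 in macrophages by the authors' deposited table and was called higher in osteoclasts than in either other cell type. Sort1, a receptor that sorts without the tag, ran the other way with 342 in osteoclasts, 7934 in dendritic cells and 2718 in macrophages by the authors' deposited table. Scarb2, the receptor of beta-glucocerebrosidase, had 4199.9 in osteoclasts, 5895 in dendritic cells and 7908 in macrophages by the authors' deposited table, called lower in osteoclasts than in macrophages. Gnptg had 583 in osteoclasts, 374 in dendritic cells and 703 in macrophages and Gga3 1422 in osteoclasts, 1106 in dendritic cells and 1629 in macrophages by the authors' deposited table, both called lower in dendritic cells than in macrophages.

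Of 30 further membrane proteins, 1 was higher and 10 lower of 28 tested in osteoclasts against macrophages, 8 higher and 6 lower of 29 in osteoclasts against dendritic cells, and 5 higher and 12 lower of 29 in dendritic cells against macrophages, in the authors' deposited table. That is 39.3%, 48.3% and 58.6% of those tested, where all genes had 29.3%, 36.9% and 36.7%. The single gene higher in osteoclasts than in macrophages was Clcn7, the chloride-proton exchanger needed for bone resorption, with means of 11071 in osteoclasts, 5401 in dendritic cells and 5111 in macrophages by the authors' deposited table. In log2 terms Clcn7 differed by 1.11 ± 0.15 for osteoclasts against macrophages (adjusted p = 3.04e-11), 1.03 ± 0.15 for osteoclasts against dendritic cells (adjusted p = 3.05e-10) and 0.08 ± 0.16 for dendritic cells against macrophages (adjusted p = 0.757). Slc11a1, a metal transporter of phagosomes, had means of 6893 in osteoclasts, 1966 in dendritic cells and 7581 in macrophages and Cd68, a macrophage glycoprotein, 44330.1 in osteoclasts, 17842 in dendritic cells and 48074 in macrophages by the authors' deposited table. Both were called lowest in dendritic cells. Slc36a1, an amino acid transporter, had 963 in osteoclasts, 2667 in dendritic cells and 2070.4 in macrophages and Slc15a3, a peptide transporter, 2674 in osteoclasts, 9863 in dendritic cells and 6548 in macrophages by the authors' deposited table. Both were called lowest in osteoclasts. Sidt2 had 2938 in osteoclasts, 9631 in dendritic cells and 3861 in macrophages and Mcoln3, a relative of Mcoln1, 13.97 in osteoclasts, 312 in dendritic cells and 30.6 in macrophages by the authors' deposited table. Mcoln3 and Sidt2 were called highest in dendritic cells, whereas Mcoln1 was called lowest there.

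Among 19 relatives of Tfeb and genes of lysosomal nutrient sensing, 1 was higher and 5 lower in osteoclasts than in macrophages, 3 higher and 2 lower in osteoclasts than in dendritic cells, and 1 higher and 9 lower in dendritic cells than in macrophages, in the authors' deposited table. Calls thus covered 31.6%, 26.3% and 52.6% of the 19 in that order, against 29.3%, 36.9% and 36.7% of all genes tested. Tfec, a relative of Tfeb, had means in the authors' deposited table of 925 in osteoclasts, 3250.3 in dendritic cells and 541 in macrophages. Log2 fold changes of Tfec were 0.76 ± 0.25 for osteoclasts against macrophages (adjusted p = 0.01), -1.79 ± 0.25 for osteoclasts against dendritic cells (adjusted p = 5.23e-12) and 2.55 ± 0.25 for dendritic cells against macrophages (adjusted p = 1.59e-23). Fnip2, a partner of folliculin, had 4127 in osteoclasts, 3201 in dendritic cells and 9088 in macrophages by the authors' deposited table and was called highest in macrophages. Rragc and Rragb, small GTPases of the pathway, had 5243 in osteoclasts, 5280.2 in dendritic cells and 7861 in macrophages for Rragc and 57.9 in osteoclasts, 10.2 in dendritic cells and 83.3 in macrophages for Rragb by the authors' deposited table. Rptor, a subunit of the mTOR complex that senses amino acids at the lysosome, had 2105 in osteoclasts, 1126 in dendritic cells and 2102 in macrophages, and Lamtor3, a subunit of its lysosomal anchor, 1361 in osteoclasts, 1749 in dendritic cells and 1436 in macrophages by the authors' deposited table. Rptor was called lower in dendritic cells than in either other cell type.

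By number of genes, inhibitors of cathepsins were mostly higher in dendritic cells than in macrophages. Summed means of the 11 listed were 44048 in osteoclasts, 51383 in dendritic cells and 40589 in macrophages. In macrophages 6 of the 11 had means under 10. Of 11 cystatins and serpins, 2 were higher and 1 lower of 10 tested in osteoclasts against macrophages, 2 higher and 7 lower of 11 in osteoclasts against dendritic cells, and 10 higher and 1 lower of 11 in dendritic cells against macrophages, in the authors' deposited table. These calls make 30.0%, 81.8% and 100.0% of those tested, against 29.3%, 36.9% and 36.7% of all genes. Cstb, an inhibitor of cathepsins B, H and L inside cells, had means in the authors' deposited table of 14349.8 in osteoclasts, 9307 in dendritic cells and 7606 in macrophages. The log2 fold change of Cstb was 0.91 ± 0.09 for osteoclasts against macrophages (adjusted p = 5.17e-22), 0.62 ± 0.09 for osteoclasts against dendritic cells (adjusted p = 5.2e-11) and 0.29 ± 0.09 for dendritic cells against macrophages (adjusted p = 0.0048). Serpinb6a had 13379 in osteoclasts, 5743 in dendritic cells and 19655 in macrophages and Serpinb1a, an inhibitor of neutrophil proteases, 292 in osteoclasts, 608 in dendritic cells and 79.0 in macrophages by the authors' deposited table. The stefins Stfa2 and Stfa2l1 had means of 1.01 in osteoclasts, 187 in dendritic cells and 0.243 in macrophages for Stfa2 and 1.75 in osteoclasts, 162 in dendritic cells and 0.485 in macrophages for Stfa2l1 by the authors' deposited table. Stefin genes are near-identical copies, so reads may be split between them, and neutrophils are known to express them. Stfa1, Stfa2, Stfa3 and Stfa2l1 were all among the 10 inhibitors called higher in dendritic cells than in macrophages. The neutrophil marker sum of 14766 in dendritic cultures stands beside the stefin values, and the part of neutrophils in them was not tested.

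**Figure D5:**
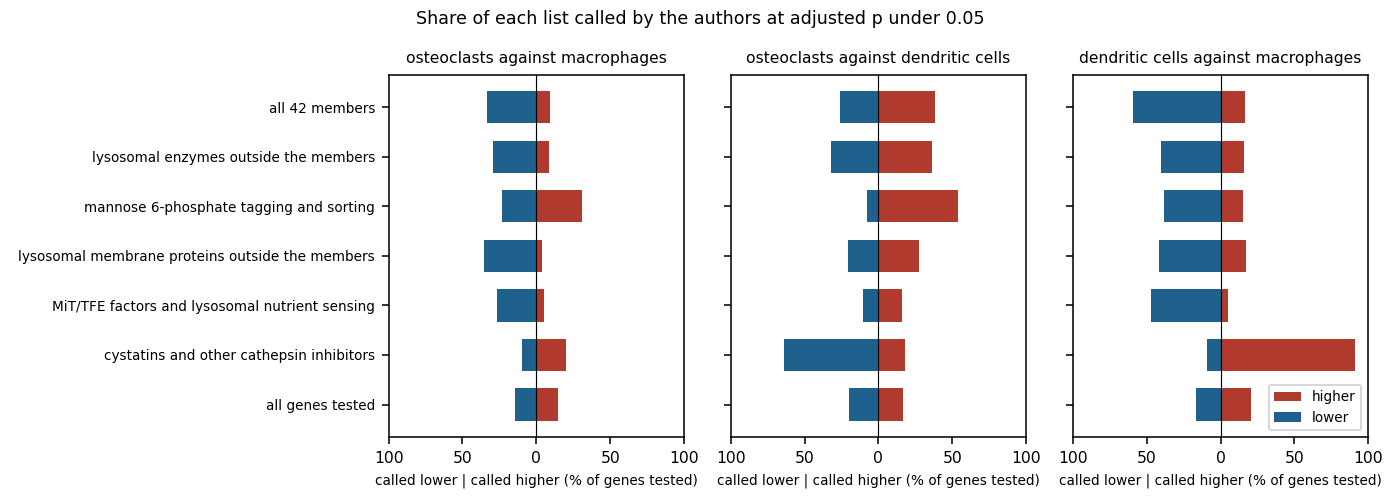
Share of the tested genes of each list called higher (right) and lower (left) by the authors, in percent, for the 42 members, 5 lists of related genes and all genes tested. In dendritic cells against macrophages 25 of 42 members were lower, where 16.4% of all genes were, and 10 of 11 inhibitors were higher, where 20.3% of all genes were.

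Other exon overlaps of members with an expressed gene were smaller or fainter. Idua and Dgkq share 124 bases, and the mean of Dgkq was 53.7% of that of Idua in osteoclasts, 71.3% in dendritic cells and 45.0% in macrophages by the authors' deposited table. Glb1 shares 165 bases with Tmppe on the same strand, with means at 33.2%, 36.7% and 29.8% of those of Glb1 in the same order of cell types. For Ctsa with Pltp the shares were 18.04%, 20.1% and 18.1%, and for Acp2 with Ddb2 14.2%, 16.3% and 14.96%. Reads of these pairs cannot be assigned further from the table.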

How the data were processed

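RNA of 12 libraries, 4 per cell type, was sequenced as 50-base single reads. One table was used, of 46072 Ensembl genes with a line for each pair of cell types. Per the file headers each line has a mean per cell type, the authors' log2 fold change and its p-value, raw and adjusted. The deposited means are a score on the scale of counts: counts divided by size factors and averaged by the authors, which follows from the values. Per the submitters' processing notes bcl2fastq, Bowtie2, TopHat2, Cufflinks 2.1.1 and DESeq2 were used with the GRCm38 build. Roles of these tools, annotation and strand setting: not given in the sources used here.

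A planned test on counts per library could not be used, since the table has means only, so the authors' calls were taken, with adjusted p under 0.05. Standard errors assume a two-sided Wald p-value, an inference. Symbols matched 45138 identifiers, and coordinates and exon lengths were read from GENCODE M21 (GRCm38), perhaps not the annotation the authors used. For means up to 1300, a limit chosen after seeing the data, whole reads per library were solved from the mean and the recovered size factors, 0.975 to 1.04, within a relative tolerance of 1.5e-15. Means, SDs and tests use only those with 1 solution, 19 of 21 for 11 members; for Ctse in dendritic cells both solutions are printed. Libraries are ordered by falling size factor, not by replicate number. The recovery and the adjustment were tested on simulated data. Low genes compared per library used exact permutation tests in scipy 1.17.1, and figures matplotlib 3.10.9 with Python 3.11.15. P-values measure the spread between these samples, from 4 separate marrow extractions.

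Every member is named. Of each related list the rule names the 2 called genes with the smallest p in each direction and comparison, and Ctsk was added as a comparison. Acp5, Elane, Ctsg, Camp, Ly6g, the other cell type markers named, Stfa1, Stfa3 and genes sharing exons with a member were named after their values were seen. The members and lists were chosen with earlier results of these data known. Alternatives were no filter, a filter at 1 CPM, equal totals, upper-quartile scaling, adjusted p under 0.01, a pseudocount of 1 and leaving out a library. Promoters are RefSeq's on GRCm38.p6.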

Additional observations from a re-analysis of the deposited data

Results flagged for a closer look

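Among 19 groups of 4 recovered libraries, Idua in dendritic cells had 1 library apart from the other 3. The libraries held 840.5, 835, 1331 and 748 normalised reads, and the gap below the highest was 0.841 of the group's range, above the critical value of 0.829 for 4 samples. Chance flags about 1 in 20 such groups, and 19 were examined. Idua was called lower in dendritic cells than in macrophages and higher in osteoclasts than in dendritic cells by the authors' deposited table. Its reads per library in osteoclasts and macrophages were above the limit for recovery.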

How the results depend on the processing

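Counts of members called stayed within a factor of 1.5 of those reported under every alternative run, in each comparison and direction. Members called ran from 15 to 22 for osteoclasts against macrophages, from 26 to 29 for osteoclasts against dendritic cells and from 29 to 33 for dendritic cells against macrophages. No called fold change of a member changed sign. Of those not called, the sign turned with equal totals in osteoclasts against dendritic cells for Lgmn (0.072), Manba (0.12), Arsa (0.17) and Ppt1 (0.0062), and in dendritic cells against macrophages for Fuca1 (-0.018), Neu1 (-0.15) and Tfeb (-0.0081). Under upper-quartile scaling it turned for Ctss (-0.029) and Gusb (-0.021) in osteoclasts against macrophages, for Arsa (0.026) in osteoclasts against dendritic cells and for Neu1 (-0.074) in dendritic cells against macrophages. Equal totals shifted log2 fold changes by 0.05, 0.19 and -0.15 in that order of comparisons, and upper-quartile scaling by -0.03, 0.05 and -0.08. Calls lost under these scalings were Tpp1 for osteoclasts against macrophages, Fuca1 and Man2b1 for osteoclasts against dendritic cells, and Manba for dendritic cells against macrophages. At adjusted p under 0.01 calls were lost for Asah1, Lamp1 and Tpp1 in osteoclasts against macrophages. They were also lost for Ctse in osteoclasts against dendritic cells, and for Manba, Naglu and Tfe3 in dendritic cells against macrophages. Calls gained in osteoclasts against macrophages were Ctsl and Manba with equal totals, and Ctsc, Glb1, Psap and Tfe3 under upper-quartile scaling. The filter at 1 CPM raised the members called there from 18 to 20. That setting kept the authors' fold changes and raw p-values and changed only the genes over which p was adjusted. The log2 ratio of the means with a pseudocount of 1 differed from the deposited fold change by more than its error for Ctse in both comparisons of osteoclasts and for Lipa in dendritic cells against macrophages. Leaving out each library, log2 ratios ran from -3.64 to -2.28 for Ctse and from -0.49 to -0.14 for Ctsf in osteoclasts against macrophages. Ctsf ran from 0.68 to 0.88 in osteoclasts against dendritic cells and from -1.27 to -0.91 in dendritic cells against macrophages, and Smpd1 from -0.75 to -0.54 there. Leaving out a library could not be run for the counts of calls. No paired analysis was possible because the table gives means per cell type and the recovered libraries carry no replicate number.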
